A study of Mus musculus with 27 samples.

Results

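Gene expression in cells sorted from the substantia nigra pars compacta (SNc) was compared with that in cells sorted from the nucleus accumbens (NAc) of mouse pups at postnatal day 7 (P7). The comparison rests on 6 of the 27 libraries of the series, 3 from SNc P7 and 3 from NAc P7, chosen by their labelled region and age. Both groups came from wild-type C57/BL6 mice, with no transgene or treatment in the labels. Tissue of each region was dissociated, and cells positive for the dopamine transporter (DAT) were collected by flow cytometry and sequenced by SMART-seq2, a full-length method for small amounts of RNA. The labels call them dopaminergic neurons. The other groups were the ventral tegmental area (VTA) at P7 and all 3 regions at P30 and P60, with 3 libraries each. The design lists 5 mice per age and does not tie libraries to mice, so some of the 9 libraries of P7 share mice. The p-values then describe only how the samples of a group vary, and that variation may be technical. The titles of the P7 libraries of all regions share 1 prefix and 1 code, whose meaning the labels do not state.

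The SNc holds the cell bodies of dopaminergic neurons that project to the dorsal striatum, and the NAc is a ventral striatal target of dopaminergic axons, whose own neurons are mostly GABAergic projection neurons. Microglia, the resident macrophages of brain tissue, are still maturing and dividing in the first postnatal weeks, and as they mature they take on a homeostatic program that includes P2ry12 and Tmem119. Border-associated macrophages live in the meninges, the perivascular space and the choroid plexus and carry scavenger receptors and Lyve1, Cd163, F13a1 and Pf4. Both kinds of macrophage can switch on chemokine, cytokine and immediate early genes when stimulated.

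The 6 libraries held 12748196 to 16455078 reads in genes. Genes with a read numbered 17800 to 19082 in SNc P7 and 19725 to 19904 in NAc P7, and mitochondrial reads took 8.26 to 10.4% in SNc P7 and 6.03 to 8.0% in NAc P7. Expression is given as FPKM (fragments per kilobase of gene, scaled to depth), divided so that each library has the same sum of reads in genes, and called the value from here on. Replicates lay close together, with rank correlations across genes of 0.824 to 0.835 in SNc P7 and 0.914 to 0.920 in NAc P7.

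The markers of the labelled cell type were scarce in both groups. Slc6a3, the gene of DAT itself, had values of 0.0629, 1.39 and 53.4 in SNc P7, against 0.319, 0 and 0 in NAc P7. Only SNc P7 replicate 3 carried it at a level well above 1, and the groups overlapped (log2 fold change 2.24 ± 0.92 (SE), limma adjusted p 0.713). Th, tyrosine hydroxylase, the rate-limiting enzyme of dopamine synthesis, had values of 3.34, 14.6 and 0 in SNc P7, against 0, 0 and 2.16 in NAc P7. It was at 0 reads in 1 SNc and 2 NAc libraries, and the groups overlapped here too (adjusted p 1). Slc18a2, the vesicular monoamine transporter, had values of 12.1, 4.16 and 8.13 in SNc P7, against 2.92, 5.21 and 3.65 in NAc P7, and Ddc, aromatic amino acid decarboxylase, of 0.698, 1.71 and 0.673 in SNc P7, against 0.648, 0.954 and 1.39 in NAc P7, both with overlap (adjusted p 1 for each). Pitx3, En1 and Foxa2, which direct the development of these neurons in the midbrain, had 0 reads throughout the 6 libraries. In contrast, the median member of the list of pan-microglial and macrophage genes lay at the 99.6 to 99.7 percentile of all genes tested in the 6 libraries, against 39.9 to 70.3 for the dopamine list. In bulk libraries such as these, fewer cells of a type and less RNA per cell cannot be told apart.

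The question was which genes differ between SNc and NAc in the first postnatal week. Of 18888 genes tested, 70 (0.371%) were higher and 26 (0.138%) lower in SNc P7 at an adjusted p under 0.05, by limma on log2(value + 1) across all 27 libraries. Log2 fold changes are SNc P7 minus NAc P7 on this scale and understate genes with low values. Without adjustment, 980 genes had a p under 0.05. For 94 of the 96 called genes the SNc and NAc libraries did not overlap. Of all genes tested, 13.6% lay above and 16.4% below in every SNc library. The calls were made on the same values, so the count of 94 is no separate support for them.

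The fit pools the spread of each gene over all 9 groups, and these differed: the median SD of the log2 values was 0.363 in SNc P7, 0.212 in NAc P7 and 0.528 to 0.839 in the other 7 groups. In such a fit a gene that varies more at other ages is harder to call, and 56 of the 96 called genes had 0 reads in at least 11 of the 21 other libraries, as had 23.8% of all genes tested. Of the called genes, 25 of the higher reached the filter for testing only through SNc P7 and 19 of the lower only through NAc P7, so that they had to differ to be tested, and their pooled spread comes largely from libraries near 0. Among the genes described below these are Il10, Tnfsf18, Oas2, Csf2, Gpnmb, Cdc6, Mcm10, Mybl2 and Dscc1, and their adjusted p in this fit is given as a description. The same model on the 6 compared libraries alone called 735 genes (3.89%) higher and 909 (4.81%) lower in SNc P7, 88 of the 96 among them. Both results are given below: a gene that was higher, lower or called without further mention passed in the fit of all libraries, and a gene that passed only in the 6-library fit is said to have done so. Across all genes tested every SNc value lay above every NAc value in 13.6% and below in 16.4%, and the median log2 fold change was -0.0054.

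The largest increases in SNc P7 among the genes that could be named were in the chemokine Cxcl1, the neuropeptide precursor Avp, the platelet factor Pf4, the angiotensin precursor Agt and the cytokine Tnfsf18. They were followed by Lyve1, F13a1, Ccl8, Il10, Rcan1, Bmp2 and Ccl24. The decreases that met the same conditions were in Arl11, Ighj4, Pclaf and Lpcat2.

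**Figure D1:**
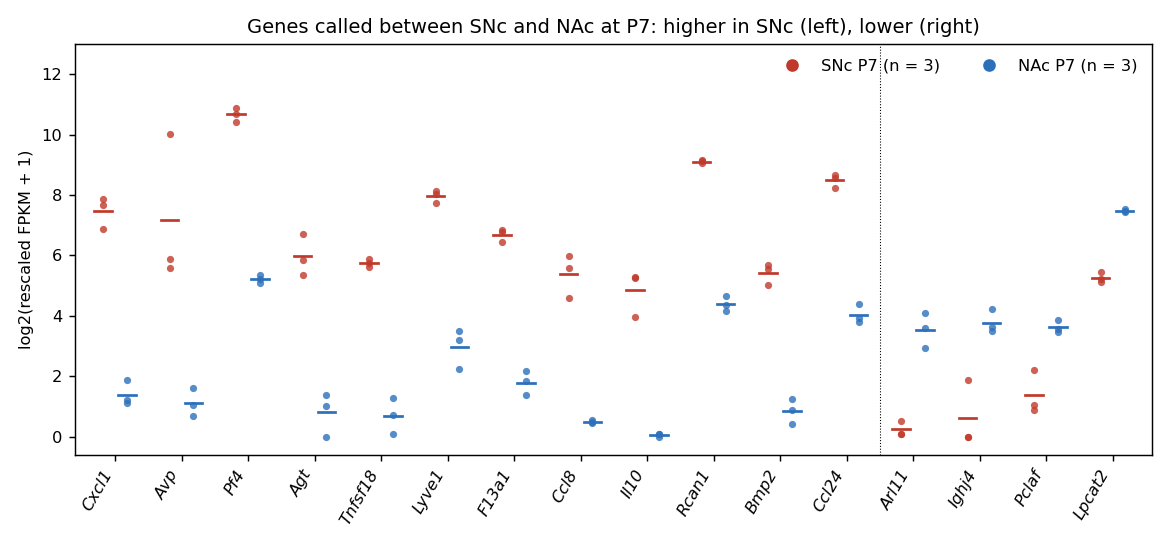
Level of the 16 genes with the largest called differences, as log2(rescaled FPKM + 1) on the vertical axis, in the 3 SNc P7 libraries (red) and the 3 NAc P7 libraries (blue), with group means as bars. The 12 genes on the left were higher and the 4 on the right lower in SNc P7, with no overlap between the groups. The points of Avp in SNc P7 lie far apart.

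Border-associated macrophage genes stood at the top of the list medians. Of the 12 members, 4 were higher and none lower in SNc P7, 10 passed as higher in the 6-library fit, and the median log2 fold change was 3.42. Lyve1, a hyaluronan receptor (ENSMUSG00000030787, chromosome 7, 110850607 to 110863239 on GRCm38), had values of 211, 261 and 281 in SNc P7, against 10.4, 3.71 and 8.12 in NAc P7. Every SNc library was at least 20 times above every NAc library, with a log2 fold change of 4.99 ± 0.93 and an adjusted p of 0.00792. F13a1, coagulation factor XIII subunit A, which cross-links fibrin (chromosome 13, 36867178 to 37050244), had values of 114, 86 and 108 in SNc P7, against 2.55, 1.57 and 3.48 in NAc P7. The SNc libraries were again far above the NAc libraries (4.90 ± 0.83, adjusted p 0.00285).

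Cd163, the scavenger receptor for haemoglobin and haptoglobin, had values of 20.6, 23.2 and 18.5 in SNc P7, against 0.504, 0.323 and 1.52 in NAc P7. It was near 1 in NAc P7 and around 20 in SNc P7 (3.66 ± 0.70, adjusted p 0.01). Pf4, a chemokine named for platelets that brain macrophages also carry (chromosome 5, 90772435 to 90773383), had values of 1653, 1902 and 1372 in SNc P7, against 36.2, 33.2 and 39.7 in NAc P7 and was 45.2 times higher by the group means (5.45 ± 1.23, adjusted p 0.0405). F13a1 was called in each of the 6 fits that left out 1 of the compared libraries, while Lyve1 lost its call without NAc P7 replicate 2 (adjusted p 0.0723). Cd163 lost it without NAc P7 replicate 1, NAc P7 replicate 2 or SNc P7 replicate 2 (adjusted p up to 0.0757), and Pf4 without any 1 of the 6 (adjusted p up to 0.17). With 0.1 in place of 1 added before the log, Lyve1, F13a1, Cd163 and Pf4 all lost their call (adjusted p 0.317 to 0.482).

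Other members passed only in the 6-library fit. Mrc1, the mannose receptor CD206, had values of 109.6, 99.9 and 82.9 in SNc P7, against 8.02, 9.99 and 13.6 in NAc P7 (adjusted p 0.000485 in the 6-library fit and 0.227 in that of all libraries). Ms4a7, a tetraspan membrane protein of macrophages, had values of 50.1, 58.8 and 61.1 in SNc P7, against 3.63, 0.846 and 2.75 in NAc P7 (0.00112 and 0.0635 in the same fits). Both were several times higher in every SNc library. Cbr2, a carbonyl reductase, Clec10a, a lectin of macrophages, Folr2, a folate receptor, and Stab1, a scavenger receptor, had log2 fold changes of 3.48, 3.36, 2.76 and 1.22. The transcription factor Maf, at 4.22, 9.94 and 7.34 in SNc P7 and 7.38, 5.42 and 6.72 in NAc P7, and the sialic acid receptor Siglec1 overlapped between the groups. The values of the 12 members summed to 2335 to 2710.2 in SNc P7 libraries and 87.4 to 118 in NAc P7 libraries.

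Further called genes outside the list are also known from scavenging macrophages. Dab2, an adaptor for endocytosis, had values of 137, 132 and 136 in SNc P7, against 11.7, 9.83 and 12 in NAc P7. Cd36, a receptor for oxidized lipids and the called member of the lysosome and phagocytosis list, had values of 84.7, 78.5 and 66.8 in SNc P7, against 5.31, 7.8 and 8 in NAc P7. In both the SNc libraries lay about 10 times above the NAc libraries (adjusted p 0.00752 and 0.0217), and the call of Cd36 was lost without any 1 of the 6 libraries (adjusted p up to 0.141). Most of the 20 lysosome and phagocytosis genes lay the other way. In the 6-library fit 3 passed as higher and 9 as lower, and the median log2 fold change was -0.31. Timd4, a receptor for phosphatidylserine on dying cells, had 14, 13.8 and 28.1 in SNc P7, against 0.412, 0.783 and 0.18 in NAc P7 (adjusted p 0.0147), and Cd4, which some tissue macrophages carry, had 16.9, 20.4 and 18.7 in SNc P7, against 1.37, 2.41 and 1.3 in NAc P7 (adjusted p 0.0036). T cell markers were nearly absent: Cd3e and Cd3g had 0 reads in all 6 libraries. These 4 genes were chosen for the text after their values were seen.

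The values of homeostatic microglial genes lay the other way. All 13 members were lower in every SNc library than in every NAc library, none was called and 12 passed in the 6-library fit, with a median log2 fold change of -2.15. P2ry12, the microglial receptor for ADP, had values of 101, 74.9 and 85.9 in SNc P7, against 419, 343 and 406 in NAc P7. Tmem119, a membrane protein of mature microglia, had values of 60, 33.1 and 34.7 in SNc P7, against 199, 224 and 213 in NAc P7. Cx3cr1, the fractalkine receptor, had values of 59.4, 57.6 and 85.4 in SNc P7, against 299, 293 and 316 in NAc P7. Each was more than 3 times lower in every SNc library, and each passed in the 6-library fit (adjusted p 0.000354, 0.00207 and 0.000668) but not in the fit of all libraries (0.74, 0.116 and 0.181). Csf1r, the receptor for the growth factor on which macrophages of both kinds depend, differed least, at 560.2, 532 and 517 in SNc P7, against 722, 698 and 738 in NAc P7.

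Pan-microglial and macrophage genes differed less. Of 15 members, none was called, 1 passed as higher and 10 as lower in the 6-library fit, and the median log2 fold change was -0.69. The complement gene C1qa had values of 2577, 2956 and 2579 in SNc P7, against 3224, 3228 and 2969 in NAc P7, and the lysosomal cysteine protease Ctss of 1095, 1266 and 1101 in SNc P7, against 2944, 3044 and 2782 in NAc P7. C1qa was close in the groups, while Ctss was more than 2 times lower in every SNc library. Spi1, the transcription factor PU.1 of the myeloid lineage, was the member that passed as higher, at 498, 474 and 436 in SNc P7, against 348, 344 and 328 in NAc P7. Summed values of this list ran from 12669 to 13959.7 in SNc P7 and from 17963 to 19086 in NAc P7.

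**Figure D2:**
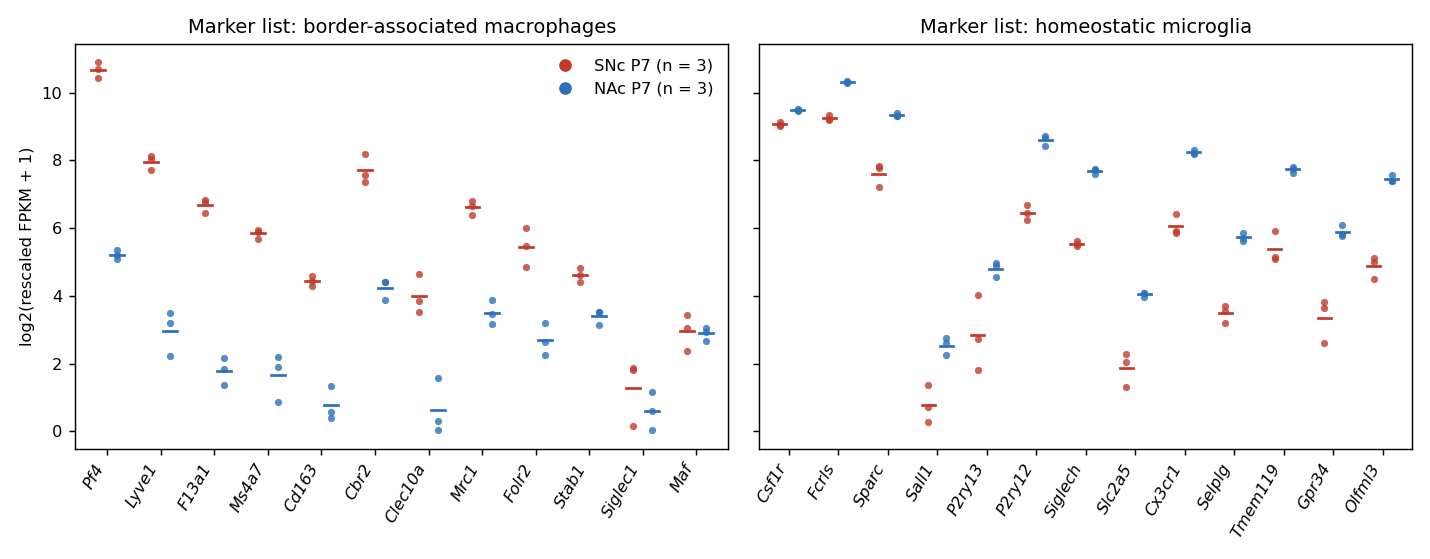
Members of the border-associated macrophage list (left) and the homeostatic microglia list (right), as log2(rescaled FPKM + 1), in SNc P7 (red) and NAc P7 (blue), 3 libraries each, with group means as bars. Of the 12 members on the left, 10 lie wholly above in SNc P7, and all 13 on the right lie wholly below.

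The complement list held both patterns. None of its 12 tested members was called, while 5 passed as higher and 3 as lower in the 6-library fit. C5ar1, the receptor for the complement fragment C5a, had values of 432, 463 and 528 in SNc P7, against 16.4, 22.1 and 24.9 in NAc P7 (adjusted p 0.0635 in the fit of all libraries and 5.92e-05 in the 6-library fit). Cfp, properdin, which stabilizes the alternative pathway convertase, had 367, 318 and 367 in SNc P7, against 15.8, 19.2 and 30.9 in NAc P7. Both were more than 10 times higher in every SNc library, whereas the classical pathway genes C1qb and C1qc were slightly lower in every SNc library (log2 fold changes -0.30 and -0.29).

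Among the list of postnatal and disease-associated microglial genes, Gpnmb, a glycoprotein of lipid-laden phagocytes, was the called member. It had values of 0.578, 0.324 and 0 in SNc P7, against 6.91, 7.14 and 1.42 in NAc P7, low throughout and lowest in SNc P7 (-2.07 ± 0.45, adjusted p 0.0291). Gpnmb reached the filter only through NAc P7, so its call is a description. The 6-library fit gave an adjusted p of 0.0562. The call was lost in 5 of the 6 fits without a library, all but that without NAc P7 replicate 3 (up to 0.22). The list as a whole was mixed, with 5 members passing as higher and 4 as lower in the 6-library fit and a median of 0.32. Apoe, the main lipid carrier of the brain, had 8547, 9231 and 7978 in SNc P7, against 4827, 5204 and 4385 in NAc P7, and Cd9, a tetraspanin, 98.5, 79.3 and 96.7 in SNc P7, against 374, 345 and 363 in NAc P7, so that they differed in opposite directions without overlap.

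Chemokine and cytokine genes had higher values in SNc P7. Of the 15 members, 2 (Cxcl1 and Il10) were called higher and none lower, 9 passed as higher in the 6-library fit, and the median log2 fold change was 1.72. Cxcl1, which attracts neutrophils (chromosome 5, 90891241 to 90893115), had values of 202, 231 and 117 in SNc P7, against 1.14, 1.3 and 2.68 in NAc P7. The groups were 108 times apart by their means (6.08 ± 0.80, adjusted p 0.000149), and the call held without each library. With 0.1 in place of 1 added before the log, Cxcl1 lost its call (adjusted p 0.131). Il10, an anti-inflammatory cytokine (chromosome 1, 131019845 to 131024974), had values of 37.5, 37.9 and 14.7 in SNc P7, against 0.0526, 0 and 0.0599 in NAc P7. Il10 reached the filter only through SNc P7, so its call is a description. Summed over the libraries it had 1601 reads in SNc P7 and 2 reads in NAc P7, a ratio of 859 after scaling to depth with a 95% exact interval of 237 to 7102, which covers counting error only (adjusted p 9.52e-05).

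The start of Cxcl1 is shown because a binding sequence of NF-kappaB, the transcription factor that drives many chemokine genes, lies there. The 250 bases before the RefSeq start (GRCm38.p6, chr5:90890995-90891244, plus strand) read, with matches to GGGA and TTCC separated by any 2 bases, on either strand, in capitals:
Cxcl1: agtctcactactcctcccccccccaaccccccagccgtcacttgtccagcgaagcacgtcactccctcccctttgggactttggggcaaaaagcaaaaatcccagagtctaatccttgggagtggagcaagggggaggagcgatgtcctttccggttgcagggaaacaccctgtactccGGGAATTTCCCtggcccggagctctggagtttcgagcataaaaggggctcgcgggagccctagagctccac
The capitals hold 1 match on each strand, shifted by 1 base, beginning 71 and 70 bases before the start. Of all 32851 RefSeq windows of this length 1.21% held this motif, and of the 52 windows of 47 genes higher in SNc P7 that could be matched, only this 1 did. A match describes the letters and is no evidence of binding.

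The most abundant chemokines also lay far apart, without being called. Ccl2, which attracts monocytes, had values of 8468, 7702 and 8139 in SNc P7, against 684, 519.8 and 490.2 in NAc P7. Ccl7, its neighbour on chromosome 11, had values of 6843, 6487 and 6899 in SNc P7, against 125, 155 and 187 in NAc P7, and Cxcl2, a neutrophil attractant, had 2622, 2206 and 2252 in SNc P7, against 181, 175 and 176 in NAc P7. In all 3 the SNc libraries lay more than 10 times above the NAc libraries with little spread within a group, and the adjusted p was 3.31e-05, 1.33e-05 and 7.11e-06 in the 6-library fit, against 0.434, 0.169 and 0.41 in the fit of all libraries. Ccl2, Ccl7 and Ccl12 belong to a family of similar genes whose reads the counting could split.

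Not all inflammatory genes shared the difference. Tnf, tumour necrosis factor, had 418, 596 and 378 in SNc P7, against 381, 295 and 304 in NAc P7, and Ccl4, another monocyte attractant, had 1753, 2042 and 1438 in SNc P7, against 1597, 1509.8 and 1196 in NAc P7, so that SNc and NAc overlapped in both. Il1a was the member with lower values in every SNc library, at 70.6, 136 and 124 in SNc P7, against 205, 178 and 197 in NAc P7, and did not pass in either fit. Il6 had 1.43, 0.186 and 0 in SNc P7, against 2.78, 0 and 0.969 in NAc P7, with libraries at 0 reads in both groups.

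Ccl8 and Ccl24, chemokines outside that list, were among the largest increases. Ccl8, known from border macrophages, had values of 46.5, 23 and 62.8 in SNc P7, against 0.404, 0.357 and 0.461 in NAc P7, and Ccl24, an eosinophil attractant, had 400.3, 381 and 297 in SNc P7, against 12.8, 19.9 and 14.4 in NAc P7. Both were more than 10 times higher in every SNc library (adjusted p 0.0176 and 0.0377). The call of Ccl8 held only without SNc P7 replicate 2 (up to 0.107 in the other 5 fits), and that of Ccl24 was lost without any 1 of the 6 libraries (up to 0.18). Tnfsf18, the ligand of the co-stimulatory receptor GITR (chromosome 1, 161494655 to 161505290), had 48.4, 52.2 and 58.3 in SNc P7, against 1.4, 0.0588 and 0.645 in NAc P7 and was called in each such fit (adjusted p 0.000144). Tnfsf18 reached the filter only through SNc P7, so these calls are a description and no separate support. With the 9 P7 libraries alone its adjusted p was 0.0547. Csf2, the cytokine GM-CSF, had 13.2, 9.79 and 4.49 in SNc P7 and 0 reads in each NAc P7 library, also in every other library of the series. Csf2 was chosen after its values were seen, and 12% of its exon bases lie under an opposite-strand gene.

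NF-kappaB pathway genes showed smaller differences in the same direction. None of 17 tested members was called, 9 passed as higher and none as lower in the 6-library fit, and the median log2 fold change was 1.11. Nfkbid, a nuclear inhibitor of NF-kappaB, had 603, 661 and 719 in SNc P7, against 183, 159 and 187 in NAc P7, and Nfkb2, the p100 subunit, had 77.4, 72.8 and 69.9 in SNc P7, against 24.2, 23.6 and 16.2 in NAc P7. Nfkbia, the inhibitor that NF-kappaB induces most directly, had 1153, 1249 and 1147 in SNc P7, against 1207, 1153 and 1209.9 in NAc P7, with a log2 fold change of -0.0091. Toll-like receptors and adaptors had a median of -0.34 with no call, and of 14 tested members 2 passed as higher and 1 as lower in the 6-library fit. The lipopolysaccharide co-receptor Cd14 (626, 874 and 700.5 in SNc P7, against 283, 239 and 225 in NAc P7) and Tlr2 (241, 303 and 302 in SNc P7, against 133, 128 and 134 in NAc P7) were the 2 members higher in every SNc library. Another 5 members were lower in every SNc library. Across all genes tested 13.6% were higher and 16.4% lower in every SNc library, so 2 of 14 is near the share of all genes.

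Immediate early genes, which cells switch on within minutes of a stimulus, divided. Of 26 tested members, 1 (Nr4a3) was called higher and none lower, while 15 passed as higher and 3 as lower in the 6-library fit, with a median of 0.97. Nr4a3, an orphan nuclear receptor, had values of 17.2, 15.4 and 11.1 in SNc P7, against 1.17, 1.09 and 1.07 in NAc P7 (2.86 ± 0.55, adjusted p 0.00965). The SNc libraries lay about 10 times above those of NAc, and the call was lost without NAc P7 replicate 2, NAc P7 replicate 3 or SNc P7 replicate 1 (up to 0.0577). Its relative Nr4a1 had 1708, 1442 and 1406 in SNc P7, against 265, 203 and 212 in NAc P7 and passed in the 6-library fit (adjusted p 0.000116, 0.208 in that of all libraries). Egr2, a zinc finger factor, had 469, 504 and 497 in SNc P7, against 95.5, 88.3 and 85 in NAc P7, while Egr1, of the same family, had 388.1, 478.3 and 502.9 in SNc P7, against 843.5, 790.3 and 842.7 in NAc P7, lower in every SNc library. Fos was at 729, 888 and 811 in SNc P7, against 870.5, 763 and 778 in NAc P7 and Jun at 922, 931 and 816 in SNc P7, against 972, 962 and 916 in NAc P7, so that the classical members were abundant and overlapped.

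**Figure D3:**
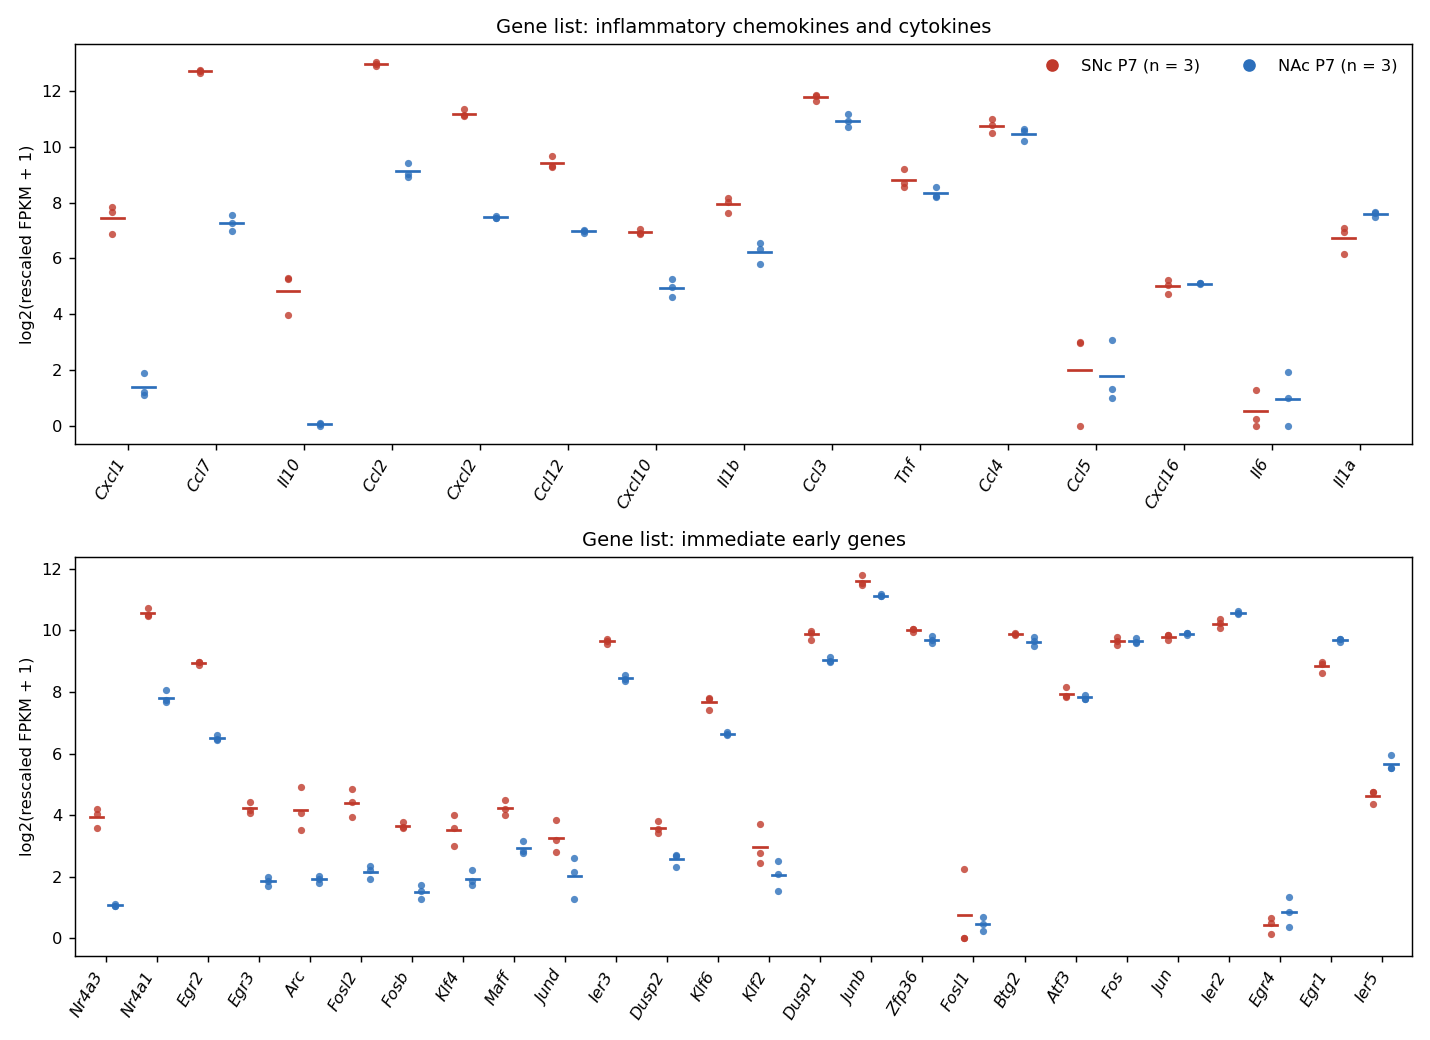
Members of the chemokine and cytokine list (upper) and the immediate early gene list (lower), as log2(rescaled FPKM + 1), in SNc P7 (red) and NAc P7 (blue), 3 libraries each, with group means as bars, ordered by fold change. Cxcl1, Ccl7, Il10, Ccl2 and Cxcl2 stand furthest apart, whereas Fos, Jun and Atf3 coincide.

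Nr4a2, known as Nurr1, is both an immediate early gene in macrophages and a transcription factor of dopaminergic neurons (chromosome 2, 57106830 to 57124003). It had values of 65.7, 66 and 40.2 in SNc P7, against 0.441, 2.74 and 2.74 in NAc P7 and was 29 times higher by the group means (4.38 ± 0.61, adjusted p 0.000274). The call held without each library. SNc P7 replicate 3, with the highest Slc6a3, had the lowest Nr4a2 of the SNc P7 libraries. Neither of the other 2 tested members of the midbrain transcription factor list, Sox6 and Otx2, was called, and their log2 fold changes were 0.19 and 0.24.

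Rcan1, an inhibitor of the phosphatase calcineurin (chromosome 16, 92391953 to 92470867), had values of 555, 565 and 532 in SNc P7, against 17, 24.4 and 19.6 in NAc P7. All SNc libraries were more than 20 times above all NAc libraries (4.71 ± 0.85, adjusted p 0.005), and the call held without each library. Rcan1 lost its call with 0.1 in place of 1 added before the log (adjusted p 0.105). One of its RefSeq starts is shown because it holds binding sequences of the factors that immediate early genes encode or answer to, the cyclic AMP response element TGACGTCA and the AP-1 motif TGANTCA, in capitals (GRCm38.p6, chr16:92400079-92400328, minus strand):
Rcan1: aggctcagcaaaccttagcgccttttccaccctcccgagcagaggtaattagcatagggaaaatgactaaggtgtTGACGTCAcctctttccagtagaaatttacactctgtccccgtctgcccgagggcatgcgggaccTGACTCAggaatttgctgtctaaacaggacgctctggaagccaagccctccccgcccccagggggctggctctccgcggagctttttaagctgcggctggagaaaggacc
The cyclic AMP response element began 175 bases and the AP-1 motif 110 bases before the start. The window of the other RefSeq start of Rcan1 (chr16:92466170-92466419, minus strand) held neither motif. Values per gene do not tell which start was used, and a match is no evidence of binding. The AP-1 motif was in 19.2% of the 52 windows of genes higher in SNc P7 and in 6.75% of all windows, against 7.69% (1) of the 13 windows of lower genes. TGACGTCA was in 3.85% of the windows of higher genes, 1.55% of all windows and none of lower genes. Genes with the AP-1 motif were Avp, Cp, Cybb, Ifit3b, Magel2, Ms4a14, Ppbp, Rcan1, Rsad2 and Serpinb8.

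Interferon-stimulated genes had higher values in SNc P7. Of 14 members, 1 (Rsad2) was called higher and none lower, 11 passed as higher in the 6-library fit, and the median log2 fold change was 2.39. Rsad2, the antiviral enzyme viperin (chromosome 12, 26442746 to 26456452), had values of 17.9, 10.4 and 7.55 in SNc P7, against 0.762, 1.5 and 0.796 in NAc P7. SNc libraries were at least 5 times above NAc libraries (2.62 ± 0.59, adjusted p 0.0405), but the call was lost without any 1 of the 6 (up to 0.236). Ifit1, an RNA-binding inhibitor of translation, had 36, 10.5 and 17.9 in SNc P7, against 0.726, 2.84 and 1.3 in NAc P7, and Irf7, the master factor of type I interferon, 11.1, 18.3 and 21.3 in SNc P7, against 3.05, 3.86 and 4.18 in NAc P7, both passing in the 6-library fit (adjusted p 0.0143 and 0.00959). Outside the list, Oas2, an antiviral RNA sensor, was called at 5.83, 5.38 and 7.85 in SNc P7, against 0, 0.0956 and 0.441 in NAc P7 (adjusted p 0.00052), as were Cmpk2 and Ifi207. Oas2 was chosen after its values were seen and reached the filter only through SNc P7, so its call is a description. Ifit3b, Ifi207 and Ifi211 belong to gene clusters with near-identical copies, which makes their counts uncertain.

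The start of Rsad2 is shown for its interferon-stimulated response element, GAAA repeated after any 2 bases, and its AP-1 motif, in capitals (GRCm38.p6, chr12:26456453-26456702, minus strand):
Rsad2: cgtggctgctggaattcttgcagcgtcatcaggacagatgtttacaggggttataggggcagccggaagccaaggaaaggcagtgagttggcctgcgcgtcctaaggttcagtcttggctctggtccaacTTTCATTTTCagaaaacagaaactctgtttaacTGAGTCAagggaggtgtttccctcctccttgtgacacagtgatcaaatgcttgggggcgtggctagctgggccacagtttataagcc
The response element lies on the opposite strand 120 bases, and the AP-1 motif 87 bases, before the start. The response element was in 9.62% (5) of the 52 windows of genes higher in SNc P7, those of Cybb, Ifi207, Ifi211, Ifit3b and Rsad2. It was in 7.69% (1) of the 13 windows of lower genes and in 2.98% of all windows. Ifi207, Ifi211 and Ifit3b are the genes with near-identical copies and uncertain counts named above. The difference between these shares was not tested, and a match is no evidence of binding.

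Genes of DNA replication and cell division had lower values in SNc P7. Pclaf, a partner of the replication clamp PCNA (chromosome 9, 65890237 to 65903266), had values of 1.05, 3.63 and 0.852 in SNc P7, against 9.94, 10.7 and 13.6 in NAc P7 (-2.24 ± 0.45, adjusted p 0.016). All SNc values lay below all NAc values, but the call held only without SNc P7 replicate 2 (up to 0.12 in the other 5 fits). Of the 21 cell cycle genes none was called, 14 passed as lower and none as higher in the 6-library fit, and the median log2 fold change was -1.26. Cdc20, an activator of the anaphase-promoting complex, had 18, 14 and 13 in SNc P7, against 57.5, 46.8 and 54.6 in NAc P7, and Aurkb, a mitotic kinase, had 8.02, 12.1 and 8.2 in SNc P7, against 32.4, 28.6 and 34.7 in NAc P7. Mki67, the proliferation marker, overlapped between the groups, at 4.59, 7.22 and 4.18 in SNc P7, against 6.95, 5.2 and 8.64 in NAc P7.

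Several replication and cell division genes outside that list were called at low values. Cdc6, which loads the replicative helicase, had 0.097, 0.735 and 0.854 in SNc P7, against 3.98, 3.63 and 5.12 in NAc P7, and Mcm10, which activates it, had 1.43, 0.823 and 0.533 in SNc P7, against 3.72, 4.22 and 3.49 in NAc P7. Both were lower in every SNc library (adjusted p 0.0322 and 0.028). The transcription factor Mybl2 and the cohesion factor Dscc1 were also called lower (adjusted p 0.0201 and 0.016). These 4 were chosen after their values were seen. They reached the filter only through NAc P7, so their calls are a description and no separate support.

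Cytosolic ribosomal protein genes, a measure of the translation machinery, had a median log2 fold change of -0.64. None of the 30 was called, and 24 passed as lower in the 6-library fit. Nuclear genes of oxidative phosphorylation had a median of -0.40, with 7 of 28 passing as lower in the 6-library fit, and the mitochondrially encoded genes a median of 0.31, with 1 of 13 passing as higher.

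The remaining decreases were in genes of varied function. Arl11, a small GTPase of macrophages (chromosome 14, 61309753 to 61311936), had values of 0.431, 0.069 and 0.0671 in SNc P7, against 6.56, 16.2 and 11 in NAc P7. Lpcat2, which makes platelet-activating factor and remodels phospholipids (chromosome 8, 92855339 to 92919279), had 33.4, 42.4 and 36.3 in SNc P7, against 185, 177 and 172 in NAc P7. Both were lower in every SNc library (-3.30 ± 0.73, adjusted p 0.0354, and -2.23 ± 0.51, adjusted p 0.0412), and both calls were lost without any 1 of the 6 libraries (up to 0.225 and 0.192). Ighj4, a joining segment of the immunoglobulin heavy chain locus (chromosome 12, 113428514 to 113428567), had 2.68, 0 and 0 in SNc P7, against 17.9, 11.3 and 10.2 in NAc P7. Its segment is short, and the 3 libraries of a group together held 2 reads in SNc P7 and 31 reads in NAc P7, a ratio of 0.0693 after scaling to depth with a 95% exact interval of 0.00803 to 0.272, which covers counting error only. It was at 0 reads in 2 SNc libraries (-3.15 ± 0.66, adjusted p 0.0213), and the call held only without SNc P7 replicate 1 (up to 0.146 in the other 5 fits).

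The heavy chain constant gene Ighm of the same locus had 92.3, 67.2 and 74 in SNc P7, against 370.2, 371 and 341 in NAc P7 and the B cell receptor gene Cd79b 15.2, 11.6 and 11.7 in SNc P7, against 49.1, 35.9 and 48.5 in NAc P7, while the B cell marker Ms4a1 had 0 reads in all 6 libraries. Both Ighm and Cd79b passed as lower in the 6-library fit (adjusted p 0.000273 and 0.00315). Of the 14 genes of neuroblasts and neural precursors, 1 was called, Igfbpl1, while 2 (Sox2 and Vim) passed as higher and none as lower in the 6-library fit, with a median of 0.37. Igfbpl1, a marker of migrating neuroblasts, had 0, 2.2 and 0 in SNc P7, against 4.53, 3.53 and 5.09 in NAc P7 (adjusted p 0.0276, 0.0669 in the 6-library fit), and its call held only without SNc P7 replicate 2 (up to 0.215 in the other 5 fits).

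Some of the largest increases were in genes of neurons and astrocytes. Avp, the precursor of vasopressin, a hypothalamic neuropeptide (chromosome 2, 130580620 to 130582554), had values of 46.8, 58 and 1043 in SNc P7, against 0.597, 1.05 and 2.04 in NAc P7. SNc P7 replicate 3 was about 20 times above the other 2 SNc libraries, and all 3 lay above all NAc libraries (6.06 ± 1.05, adjusted p 0.0036). Without SNc P7 replicate 3 the log2 fold change was 4.63 and the adjusted p 0.0412, and the call held without each of the other libraries. Avp lost its call with 0.1 in place of 1 added before the log (adjusted p 0.108). Agt, angiotensinogen, which brain astrocytes make (chromosome 8, 124556534 to 124569706), had 104, 40 and 57 in SNc P7, against 1.02, 1.61 and 0 in NAc P7 (5.18 ± 1.05, adjusted p 0.016). Its call held only without SNc P7 replicate 2 (up to 0.121 in the other 5 fits).

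Bmp2, a growth factor of the BMP family (chromosome 2, 133552159 to 133562885), had 45.5, 50.2 and 31.4 in SNc P7, against 0.349, 0.855 and 1.35 in NAc P7 and was called in each fit without a library (4.56 ± 0.56, adjusted p 9.39e-05). Bmp2 lost its call with 0.1 in place of 1 added before the log (adjusted p 0.149). Ednrb, the endothelin B receptor, which astrocytes carry, had 122, 94.1 and 117 in SNc P7, against 14.5, 18.1 and 11 in NAc P7 (adjusted p 0.00277). It was higher in every SNc library, and it was chosen after its values were seen.

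Of the 14 astrocyte markers none was called and 9 passed as higher in the 6-library fit, with a median of 1.23. Aqp4, the water channel of astrocyte endfeet, had 30.4, 13.7 and 25.6 in SNc P7, against 5.62, 5.84 and 3.77 in NAc P7, and Gfap, the astrocyte intermediate filament, had 38.4, 30.5 and 145 in SNc P7, against 4.05, 14.6 and 4.67 in NAc P7. Both were higher in every SNc library. Summed over the list, values ran from 270.2 to 407 in SNc P7 and from 95 to 176 in NAc P7.

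Markers of the regions' own neurons were not called at these levels, apart from Nr4a2 above. Of 12 dopamine genes none was called, and Maoa, monoamine oxidase A (9.75, 6.58 and 9.23 in SNc P7, against 1.75, 2.54 and 2.43 in NAc P7), and Gch1, the first enzyme of tetrahydrobiopterin synthesis (11, 14.6 and 15 in SNc P7, against 2.73, 2.36 and 3.54 in NAc P7), passed as higher in the 6-library fit. Of 14 tested striatal projection neuron genes none was called, while Ppp1r1b, the phosphoprotein DARPP-32, and Penk, proenkephalin, passed as lower in that fit. Ppp1r1b had 4.38, 1.41 and 20.6 in SNc P7, against 74.5, 67.1 and 65 in NAc P7 and Penk 17.3, 11.5 and 27.3 in SNc P7, against 85.7, 76.4 and 38.4 in NAc P7, both lower in every SNc library. Of 14 tested forebrain transcription factors none passed in either fit. Pan-neuronal genes had a median of 0.59 and GABAergic genes of 1.00, with 3 of 14 and 4 of 11 passing as higher in the 6-library fit.

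Oligodendrocyte precursor genes summed to 42.9 to 71.1 in SNc P7 and 16.2 to 28.5 in NAc P7, with a median log2 fold change of 0.93 and 2 of 10 passing as higher in the 6-library fit. Myelinating oligodendrocyte genes summed to 56.2 to 92.5 in SNc P7 and 38.5 to 50.8 in NAc P7, with a median of 0.50, 4 of 14 passing as higher and 1 as lower in that fit. None of either list was called.

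The part of the macrophage, microglial, astrocyte, oligodendrocyte and neuronal lists in the differences of cytokine, interferon, immediate early and replication genes was not tested. Red blood cell genes, chiefly haemoglobins, varied widely within both groups, with sums of 34.7 to 475 in SNc P7 and 16.3 to 213 in NAc P7, a median of 1.40 over 5 tested members and none passing in either fit. The list of T, NK and B cells, most of whose sum is Ighm, summed to 80.1 to 108 in SNc P7 and 389 to 419 in NAc P7, with 2 of 3 tested members, Ighm and Cd79b, passing as lower in the 6-library fit. The summed values of the monocyte and neutrophil list were 4 to 6.52 in SNc P7 and 4.48 to 8.2 in NAc P7, with Lcn2 and Retnlg at 0 reads in all 6 libraries. Endothelial genes summed to 337 to 366 in SNc P7 and 426 to 477 in NAc P7, with a median log2 fold change of -0.081.

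**Figure D4:**
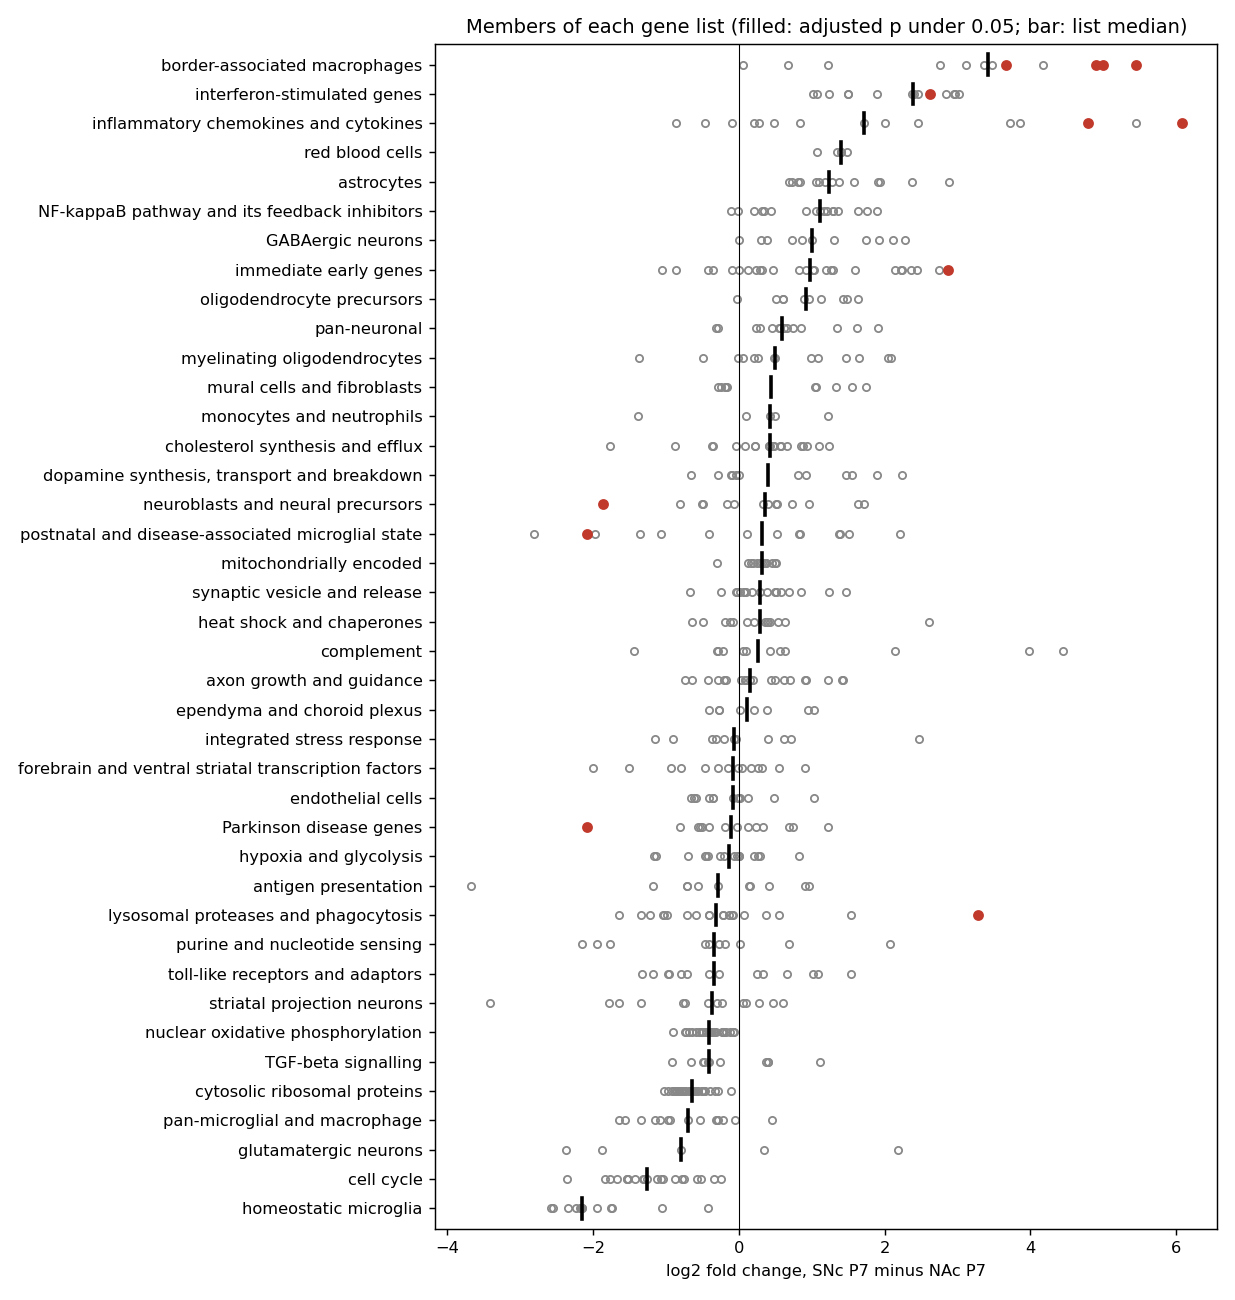
Log2 fold change (SNc P7 minus NAc P7) of each tested member of the gene lists with 5 or more tested members, ordered by list median (bars), with called members filled in red. Border-associated macrophages and interferon-stimulated genes have the highest medians, at 3.42 and 2.39, and homeostatic microglia the lowest, at -2.15.

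Whether these differences were particular to P7 was tested against the mean of the same difference at P30 and P60. The difference between SNc and NAc was more positive at P7 for 181 genes (0.958% of those tested) and more negative for 36 (0.191%), among them 66 of the 96 genes called at P7. Both tests use the same P7 values, so a gene called at P7 was more likely to pass here. That overlap is no separate evidence that the differences are particular to P7. The median of all genes was shifted by 0.25 on the log2 scale in this contrast. Positive calls made up 83.4%, and 62.5% after quantile normalization, which removes that shift. The titles carry another prefix and code at each age, so that age and whatever these mark cannot be told apart.

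The median log2 value of the border-associated macrophage list was 5.65 ± 0.36 in SNc and 2.72 ± 0.43 in NAc at P7, 2.37 ± 1.12 in SNc and 2.86 ± 0.17 in NAc at P30, and 2.12 ± 0.55 in SNc and 1.12 ± 0.98 in NAc at P60 (mean ± SD, n = 3 each). F13a1 had a difference at P7 that was larger than that at later ages by 5.67 ± 1.01 (log2 ± SE, adjusted p 0.00516), with SNc minus NAc differences of -1.76 at P30 and 0.21 at P60. Lyve1 had 5.59 ± 1.14 (adjusted p 0.0133, lost without NAc P7 replicate 2 at 0.0634), with -1.30 at P30 and 0.10 at P60.

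Rcan1, at 5.25 ± 1.04 (adjusted p 0.0109), and Nr4a2, at 5.61 ± 0.75 (adjusted p 0.000546), were also more positive at P7. Nr4a2 was lower in SNc than in NAc by its mean at both later ages, with differences of -1.39 at P30 and -1.06 at P60. Avp had the largest positive estimate, 8.45 ± 1.29 (adjusted p 0.00185), with differences of -0.38 at P30 and -4.40 at P60.

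For the homeostatic microglia list the median was 5.26 ± 0.24 in SNc and 7.66 ± 0.062 in NAc at P7, 7.61 ± 0.39 in SNc and 7.92 ± 0.36 in NAc at P30, and 8.03 ± 0.84 in SNc and 6.33 ± 0.32 in NAc at P60. Arl11 differed from later ages by -4.81 ± 0.90 (adjusted p 0.00752), Lpcat2 by -3.55 ± 0.62 (0.00409) and Ighj4 by -3.56 ± 0.81 (0.0267). For Lpcat2 the SNc minus NAc difference was 0.39 at P30 and 2.25 at P60. The call of Ighj4 in this test held only without SNc P7 replicate 1 (up to 0.107 in the other 5 fits).

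Chemokine and cell cycle lists had lower medians at P60 than at P7 in both regions. The median log2 value of the chemokine and cytokine list was 7.96 ± 0.26 in SNc and 6.96 ± 0.052 in NAc at P7, and 5.08 ± 0.19 in SNc and 1.58 ± 1.54 in NAc at P60. The median over its members of the P7 difference minus that at later ages was -0.21, with 2 members called positive. The cell cycle list was at 3.26 ± 0.13 in SNc and 4.65 ± 0.27 in NAc at P7, and at 0.078 ± 0.11 in SNc and 0.069 ± 0.06 in NAc at P60, with no member called in this test.

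**Figure D5:**
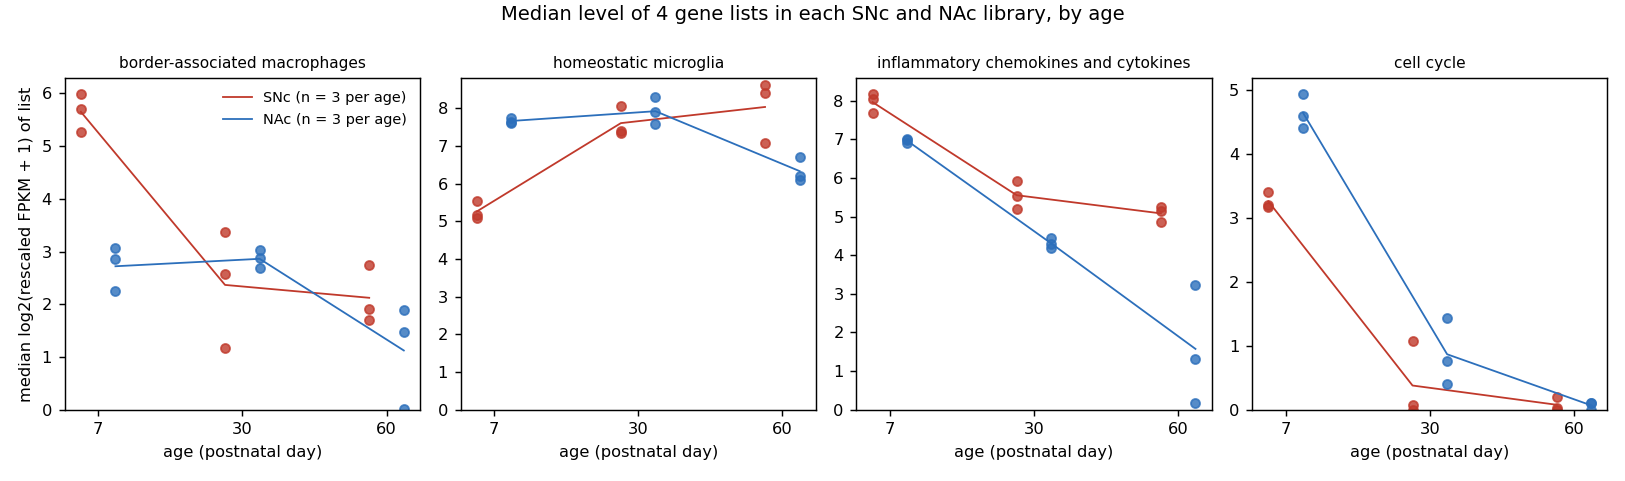
Median log2(rescaled FPKM + 1) of 4 gene lists in each SNc (red) and NAc (blue) library at postnatal days 7, 30 and 60, with lines through the group means. Border-associated macrophage genes stand apart at P7, by 5.65 in SNc against 2.72 in NAc. Homeostatic microglial genes are lower in SNc than in NAc at P7, and cell cycle genes are near 0 in both regions at P60. VTA is not shown.

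VTA, the other midbrain region, was set beside the pair at P7 without a test. Of the 70 genes higher in SNc P7, the VTA P7 mean lay nearer to NAc P7 for 57, and of the 26 lower genes it lay nearer to SNc P7 for 25. Selection partly fixed these counts. Of the higher genes, 25 reached the filter only through SNc P7, and of the lower, 19 only through NAc P7. The share over all genes tested is not given, so the counts are no result about VTA. Pf4 had 485, 497 and 63.6 and F13a1 7.1, 16.9 and 0.0441 in the 3 VTA P7 libraries, below every SNc P7 library. Ednrb, at 157, 87.7 and 188, and Agt, at 409, 127 and 225, were instead as high in VTA P7 as in SNc P7 or higher. The homeostatic microglia list summed to 950 to 1119 in VTA P7, against 1583 to 1689 in SNc P7 and 3949 to 4169 in NAc P7. The cell cycle list summed to 43.9 to 95.2 in VTA P7, against 267 to 314 in SNc P7 and 609 to 717 in NAc P7. Low values of these lists were thus not particular to SNc P7. The border-associated macrophage list summed to 81.3 to 664 in VTA P7, below every SNc P7 library. VTA P7 replicates lay further apart than those of the other P7 groups, with rank correlations of 0.624 to 0.678.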

How the data were processed

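RNA of DAT+ sorted cells was measured by SMART-seq2 with 150 bp paired-end reads in 27 libraries. Per the submitters' processing notes, HISAT2 was used with GRCm38/mm10. How reads were counted, with or without strand, and on which annotation, is not given in the sources used here. Deposited by the authors were FPKM per gene, for 54532 genes. VTA P30 replicate 3 was deposited by the authors in another unit that keeps the ratios of FPKM, and the deposited gene length column is in bases. FPKM times length gave whole reads for 100% of values below 1000 reads (tolerance 0.02). The table lacks the capital letter M and its names are shifted against the IDs, so symbols were taken by gene ID from the reference (54409 matched) and positions from GENCODE M21 (GRCm38).

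Each library was divided by its sum of FPKM times length in kb. Genes that reached a value of 1 in 3 or more libraries were tested with limma 3.58.1 (trend and robust, R 4.3.3) on log2(value + 1), with a term for each of 9 groups and two-sided p-values adjusted by Benjamini and Hochberg over all genes tested. The procedure was tested on simulated data in which every group was given the spread of SNc P7. The real groups differed in spread, so the simulation cannot say how the fits compare on these data. In it the fit of all libraries recovered more of the changed genes than that of the 6 compared libraries. With the other groups at their real means, it also called several times more unchanged ones. Its calls may therefore hold more false ones than the threshold states. Other steps used Python 3.11.15, numpy 2.4.6 and pandas 2.3.3. Genes to be named passed the threshold with a mean of at least 5 over the 6 libraries, no overlap and a usual symbol. They were the 12 largest in each direction (4 qualified as lower), up to 4 members of any list with at least 3 calls, 6 dopaminergic genes, and the 5 largest in each direction of the test between ages (3 qualified as negative). The members and the 42 gene lists were chosen with earlier results of these data known. Promoter windows are those of RefSeq (GRCm38.p6). Il10 had no window. A few genes are not reported here and were left out of the lists. A floor of 3 reads marks detection. Same-numbered SNc and NAc libraries did not deviate together (correlations -0.017 to 0.013).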

Additional observations from a re-analysis of the deposited data

Results flagged for a closer look

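The SNc minus NAc difference at P7 differed from its mean at P30 and P60 for 217 genes at an adjusted p under 0.05 (limma). Of the named genes the estimate was positive for Avp (8.45 on the log2 scale), F13a1 (5.67), Nr4a2 (5.61), Lyve1 (5.59) and Rcan1 (5.25), where every SNc P7 library lay above every NAc P7 library. It was negative for Arl11 (-4.81), Ighj4 (-3.56) and Lpcat2 (-3.55), where every SNc P7 library lay below every NAc P7 library. A call at P7 without overlap was a condition for naming a gene in this test. The groups of 3 are too small for a search for single libraries that stand apart.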

How the results depend on the processing

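The count of 96 genes at P7 changed with the setting as follows: 215 with no filter beyond 1 read, 50 with a filter of at least 5 in 3 libraries, 27 with a pseudocount of 0.1, 1644 with the 6 compared libraries alone, 206 with the 9 P7 libraries alone and 189 without 4 libraries of other groups (replicates 3 of NAc and SNc at P60, VTA P30 replicate 3 and VTA P60 replicate 2). Leaving out 1 of the 6 libraries gave 43 to 69. It was within 1.5 times of 96 with a filter on the compared libraries (115), the deposited scale (95), quantile normalization (139) and voom on recovered reads (69, of which 28 were among the 96). The share of higher calls was 72.9%, against 92.0% with the filter of 5, 52.1% with no filter, 44.7% with the 6 libraries, 53.4% with the P7 libraries and 61.4% without the 4 libraries.

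The count of 217 in the test between ages was 15 with a pseudocount of 0.1, 571 with the 18 SNc and NAc libraries alone, 804 without the same 4 libraries, and 78 to 132 without 1 of the 6. The causes were not tested.

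The labels do not state whether replicate numbers pair the samples, and the deviations of so few libraries cannot settle it. With the number as a replicate block the counts were 64 (63 among the 96) and 119. No called gene that is named reversed its direction under any setting run, while Ddc, uncalled and near 0, changed sign in 4 settings. The balance of the calls at P7 turned with the 6 libraries alone (735 higher, 909 lower, against 70 and 26). Of the 35 values of named or called list genes, 23 lost their call with a pseudocount of 0.1, 19 with voom, 6 with the block, 4 on the deposited scale, 2 with the filter of 5 and 2 with the 6 libraries alone, and 7 of the 27 that could be fitted with the 9 P7 libraries alone. The 35 and the 27 include Slc6a3, Th, Slc18a2 and Ddc, which had no call to lose. Cxcl1, Avp, F13a1 and Bmp2 kept their calls without each library but lost them with the pseudocount of 0.1 and with voom. The depth limits statements on Il6, Pitx3 and other genes at a few reads.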

Other observations

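Further peptide genes were looked at after the level of Avp was seen. Gal, galanin, had 0.814, 135 and 46.7 in SNc P7, against 0, 7.34 and 5.07 in NAc P7, and Trh, thyrotropin-releasing hormone, had 6.18, 13.4 and 6.99 in SNc P7, against 0.896, 1.01 and 0.17 in NAc P7. Pmch, the precursor of melanin-concentrating hormone, had 5.42, 1.51 and 1.96 in SNc P7, against 0, 0 and 0 in NAc P7, and Oxt, oxytocin, 0.809, 0.701 and 7.09 in SNc P7, against 0, 0 and 0.876 in NAc P7. None was called, and the 6-library fit gave adjusted p of 0.384, 0.01, 0.035 and 0.304. Trh and Pmch were higher in every SNc library, while Gal and Oxt overlapped. Of the exon bases of Pmch, 58.1% lie under an opposite-strand gene, so its reads may belong to that gene. The library with the highest Avp, SNc P7 replicate 3, also had the highest Slc6a3, Ppp1r1b and Gfap of the SNc P7 libraries, but not the highest Gal or Trh.

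Genes of the Y chromosome were present in all 6 libraries: Ddx3y, an RNA helicase, had 17.4, 25.4 and 13.8 in SNc P7, against 15.1, 14.8 and 18 in NAc P7, and Uty, a histone demethylase, 2.62, 3.62 and 2.95 in SNc P7, against 3.51, 3.12 and 4.66 in NAc P7. Xist, the RNA of the inactive X chromosome, had values up to 0.0168 in SNc P7 and up to 0.0576 in NAc P7. The labels give no sex.

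The antigen presentation list was uneven among NAc P7 libraries. H2-Ab1, a class II chain, had 1.11, 1.24 and 0.761 in SNc P7, against 16.3, 12.7 and 72.1 in NAc P7, and H2-Aa, its partner, 0, 2.33 and 0 in SNc P7, against 0, 0.713 and 21.2 in NAc P7. NAc P7 replicate 3 was the highest in both. The class I gene H2-D1 had 1421, 1534 and 1679.8 in SNc P7, against 778, 853 and 744 in NAc P7 and H2-K1 548, 479 and 569 in SNc P7, against 864, 860.0 and 878 in NAc P7, in opposite directions without overlap. These 2 genes are near copies of each other, so their counts are uncertain.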
